A study of Arabidopsis thaliana with 10 samples.

Results

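The RNA of wild-type Arabidopsis thaliana seedlings is described here from 3 of the 10 libraries of a series that also sequenced the fve-8 mutant and small RNA. The 3 libraries were all those that the labels give as RNA of the wild type, and they were taken from the columns of the deposited count table that carry its name. They are called replicates 1, 2 and 3. The wild type is labelled with the genotype E5-4 in ecotype Ler (Landsberg erecta), and the submitters call it the WT of fve-8. What E5-4 carries beyond the Ler background is not stated in the labels. The material was the whole seedling, root and shoot together, 5 days old, sterilised in bleach and grown on MS medium in what the labels call mid light, with no treatment. Trizol RNA went into the TruSeq Stranded Total RNA kit. The labels do not say whether the 3 libraries came from separate plates or days, so the spread between them may be partly technical.

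A seedling of this age lives on the change from stored reserves to its own photosynthesis. Its open cotyledons make the nuclear-encoded parts of the photosynthetic apparatus, which are imported into plastids and joined there to parts encoded by the plastid genome. The small subunit of Rubisco and the light-harvesting chlorophyll a/b proteins come from nuclear genes, while the large subunit of Rubisco and the reaction centre proteins come from the plastid. Libraries from total RNA do not select for a poly(A) tail and so keep plastid transcripts and other RNA without one.

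The 3 libraries held 17301361, 17723538 and 16282013 counts over 73194 features. Levels in CPM, counts relative to the size of the library and scaled alike in all 3, were computed on library sizes scaled by TMM, a normalization that sets most features equal between libraries. CPM is not divided by the length of a transcript, so an order of genes by CPM is an order of counts and not of molecules. In one library 3 counts, the number that a count of 0 still allows, were worth 0.172 to 0.183 CPM, and this covers counting error only. Over 18603 nuclear genes the chi-square divided by its degrees of freedom was 2.38 between replicates 1 and 2, 3.13 between replicates 1 and 3 and 2.89 between replicates 2 and 3. Sampling noise alone gives about 1, so no library was treated as a second deposit of another. Separate preparations of the same RNA would also exceed 1.

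Nuclear genes and plastid genes shared nearly all counts between them. The 28496 nuclear genes held 52.6%, 52.1% and 53.3% of the counts in replicates 1, 2 and 3 (52.7% ± 0.593, SD, n = 3). Only 133 plastid genes held 45.3%, 45.9% and 44.9% (45.4% ± 0.534). Nuclear genes were ahead in every library, and the gap between both classes was wider than the spread between libraries. This lead rested on a stretch of chromosome 2 described below. Without it the mean shares were 49.1% for nuclear and 48.8% for plastid genes. Mitochondrial genes, 146 in number, took 1.11%, 1.05% and 0.983%. The 13230 non-coding loci took 0.830%, 0.820% and 0.769%, and the 31189 transposable elements took 0.112%, 0.106% and 0.103%. In these 3 minor classes replicate 1 was the highest library and replicate 3 the lowest.

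**Figure D1:**
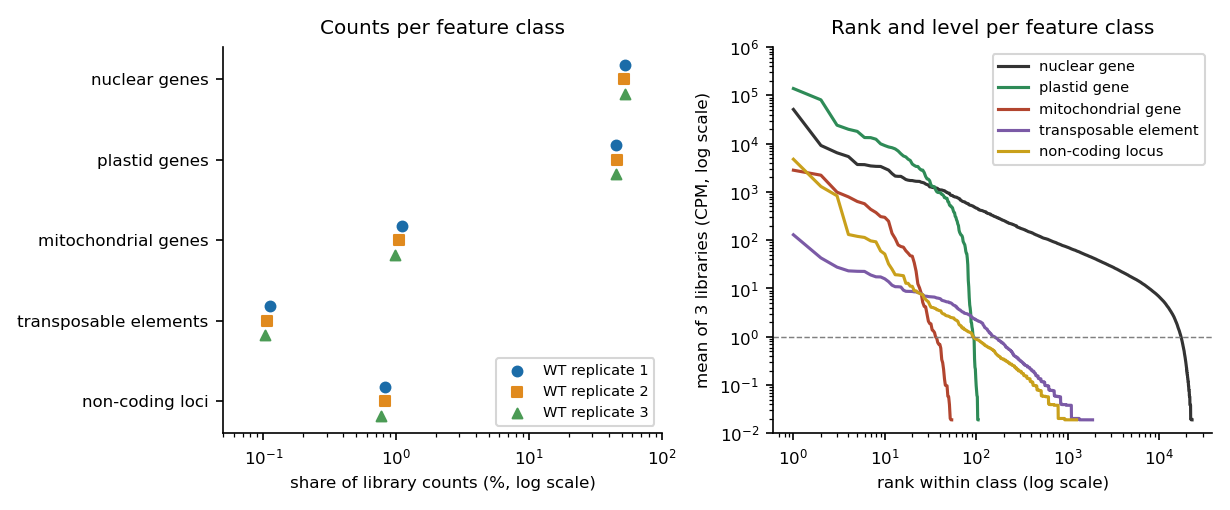
Left, share of the counts of each WT library (percent, log scale) in 5 classes of features, with 1 symbol per replicate; right, mean CPM of the 3 libraries against rank within the class, both on log scales, with a dashed line at 1 CPM. The plastid curve starts highest and ends after 105 genes with a count, while the nuclear curve runs on through 23060 genes.

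The classes differed in how their counts were spread. Of all 73194 features, 9 of the 10 with the highest mean CPM were plastid genes and 1 was nuclear. Among the first 100 there were 52 nuclear, 43 plastid, 3 mitochondrial and 2 non-coding features, and among the first 1000 there were 902 nuclear and 75 plastid genes. In the plastid class 3 genes held 50% of the CPM of the class, against 473 genes in the nuclear class. At a mean of at least 1 CPM, 93 of the 133 plastid genes, 35 of the 146 mitochondrial genes, 158 of the 31189 transposable elements and 92 of the 13230 non-coding loci were counted as detected. No count in any library was found for 29311 transposable elements and 11973 non-coding loci.

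The first features of the classes other than nuclear are given by identifier, because the reference used here pairs no name with them. ATCG00020 was first of all features, with 133118, 140267 and 140991 CPM in replicates 1, 2 and 3. It alone held 30.4% of the plastid CPM and 13.8% of the whole library. ATCG00490 was second with a mean of 80454 CPM. Among mitochondrial genes ATMG01360 came first with 2874, 2806 and 2762 CPM. ATMG00020 followed with 2383, 2332 and 1935 CPM and was lower in replicate 3 than in the other two.

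A single non-coding locus carried most of its class. At4NC005680 stood at 4735, 4988 and 4511 CPM, which was 58.8% of the non-coding CPM and place 23 of all features. At5NC082220 followed at 1398, 1309 and 1177 CPM, 16.1% of the class. Transposable element counts were low and spread out, with 33 elements needed for 50% of the class. The first of them, AT4TE07420, stood at place 534 of all features with 143, 132 and 113 CPM, and AT3TE64435 followed with 51.5, 41.7 and 35.7 CPM. Replicate 1 was highest and replicate 3 lowest for both elements.

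Of the 28496 nuclear genes, 17445 (61.2%) had a mean of at least 1 CPM, 16859 reached that level in each library, and 5436 had no count in any. The 46 genes at 1000 CPM or more held 27.9% of the nuclear CPM, the 593 genes between 100 and 1000 CPM held 25.6%, and the 7203 genes between 10 and 100 CPM held 38.0%. The 9603 genes between 1 and 10 CPM, the most populated range, held 8.24%. The median of the detected genes was 8.54 CPM. The first 20 genes held 21.5% and the first 100 held 34.7% of the nuclear CPM.

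Much of the nuclear total came from one stretch of chromosome 2. The nuclear gene with the most counts was AT2G07732, with 52630, 50339 and 49998 CPM. It held 9.68% of the nuclear CPM and 5.10% of the library, and its counts were 4.88 times those of all 146 mitochondrial genes together. AT2G07671 was at place 3 with 6421, 6583 and 6348 CPM and AT2G07698 at place 4 with 5776, 5366 and 5021 CPM. The reference gives these loci no name of their own. As background, chromosome 2 of Arabidopsis carries a large copy of the mitochondrial genome near its centromere, and loci with AT2G07 numbers lie in and around it.

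The 90 loci numbered AT2G07600 to AT2G07899, a range chosen after their counts were seen, held 13.9%, 13.2% and 12.9% of the nuclear counts (13.3% ± 0.522). There were 51 of them at 1 CPM or more, 4 among the first 20 nuclear genes and 8 among the first 100. They were lowest in replicate 3 for 35 of the 55 tested loci (63.6%), against 34.7% of all tested nuclear genes. The mitochondrial, non-coding and transposable element classes were also lowest in replicate 3, as given above. Whether the counts of these loci came from nuclear, mitochondrial or plastid RNA cannot be told apart in the table. The sources used here do not give how the authors counted reads that match several places. Without the stretch, nuclear genes held 49.1% and plastid genes 48.8% of the counts on average. Both classes were then so close that their order was not the same in every library. In place of 473 genes, 801 made up 50% of the nuclear CPM.

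By chromosome, the same stretch set the order. Chromosome 2 held 26.2% ± 0.484 of the nuclear counts with 15.7% of the nuclear genes, and 14.8% of the nuclear CPM once the stretch was left out. Chromosome 1 held 25.4% ± 0.199 with 26.4% of the genes, chromosome 3 held 17.3% ± 0.104 with 19.8%, chromosome 4 held 12.7% ± 0.113 with 15.1% and chromosome 5 held 18.4% ± 0.135 with 23.0%. With the stretch left out, chromosomes 1, 3, 4 and 5 held 29.3%, 20.0%, 14.7% and 21.3% of the nuclear CPM. The share of genes at 1 CPM or more hardly differed, from 60.3% on chromosome 2 to 62.0% on chromosome 5.

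Apart from the stretch, genes of photosynthesis led the nuclear order of counts, and 14 of the first 20 nuclear genes were in the 4 photosynthesis lists. The members of gene families with near-identical copies, such as the Rubisco small subunits and the LHCB1 proteins, share sequence, so the split of counts among them is uncertain.

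Carbon fixation is given first. RBCS1A, a small subunit of Rubisco, stood at 9172, 8905 and 9363 CPM. RCA, the activase that frees Rubisco of bound sugar phosphates, stood at 3241, 3803 and 3950 CPM, lowest in replicate 1. The other small subunits were RBCS3B at 3072, 3553 and 3460 CPM, RBCS2B at 1599, 1769 and 1880 CPM and RBCS1B at 571, 610 and 708 CPM. All 3 of these were lowest in replicate 1. FBA2, a plastid aldolase of the Calvin cycle, was twentieth with 1604, 1793 and 1750 CPM. All 16 genes of the Rubisco and Calvin cycle list were detected, and their summed level was 25120 ± 1151 CPM, or 4.77% of the nuclear CPM.

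Light harvesting is next. CAB1 (also LHCB1.3), an antenna protein of photosystem II, stood at 3461, 4040 and 3567 CPM. The antenna proteins of photosystem I LHCA3 (2868, 3092 and 3277 CPM) and LHCA4 (2651, 2896 and 2940 CPM) were both lowest in replicate 1. LHB1B2, CAB3 and CAB2, 3 more LHCB1 proteins, had means of 2395, 2125 and 2097 CPM, and LHCB5, a minor antenna protein, had 1949 CPM. The 18 genes of the list summed to 26859, 30393 and 28619 CPM, 5.43% of the nuclear CPM. Of the 18, 17 were above 100 CPM, while LHCB4.3, a variant of a minor antenna protein, stood at 16.4, 18.8 and 20.3 CPM.

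Of the photosystem cores and the electron transport chain, the nuclear gene with the most counts was PSBR, a subunit of photosystem II near the water-splitting complex, with 3201, 3723 and 3212 CPM. It was highest in replicate 2. PSBO1, which stabilises the manganese cluster, had 1595, 1704 and 1656 CPM. PSAL and PSAF, subunits of photosystem I, had 1550, 1774 and 1621 CPM and 1114, 1362 and 1342 CPM. All 27 genes of the list were detected, 26 of them above 100 CPM, and PETE1, a minor plastocyanin, was the exception at 52.5, 68.1 and 66.5 CPM.

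CA1, a plastid carbonic anhydrase, stood at 1996, 2105 and 2194 CPM, and CA2 at 1054, 1072 and 1196 CPM. CAT3, a catalase, had 1032, 1041 and 1105 CPM, and AGT, the peroxisomal aminotransferase that makes glycine from glyoxylate, had 674, 770 and 782 CPM. The levels of this list, photorespiration with carbonic anhydrase, moved in step: replicate 3 was the highest library for all 13 genes, with TMM, with library totals and with DESeq2 size factors. The sizes were small, from 1.07-fold to 1.23-fold between the highest and the lowest library, and 35.6% of all tested nuclear genes were highest in replicate 3.

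Replicate 1 was the lowest library for 17 of 18 light-harvesting genes, 24 of 27 photosystem genes, 15 of 16 Calvin cycle genes and 13 of 13 photorespiration genes, against 32.1% of all tested nuclear genes. With library totals in place of TMM these counts were 17, 21, 14 and 7. The photosystem list summed to 22350, 24601 and 24073 CPM and the Calvin cycle list to 23898, 25276 and 26185 CPM. The median coefficients of variation beyond counting error, explained below, were 7.29%, 6.23%, 6.40% and 6.94% for the lists in the order above. The median of all nuclear genes was 2.89%. By level it was 4.00% between 100 and 1000 CPM and 5.86% at 1000 CPM or more. None of these 74 genes was called variable by the rule given below, which called 1.67% of all tested nuclear genes.

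**Figure D2:**
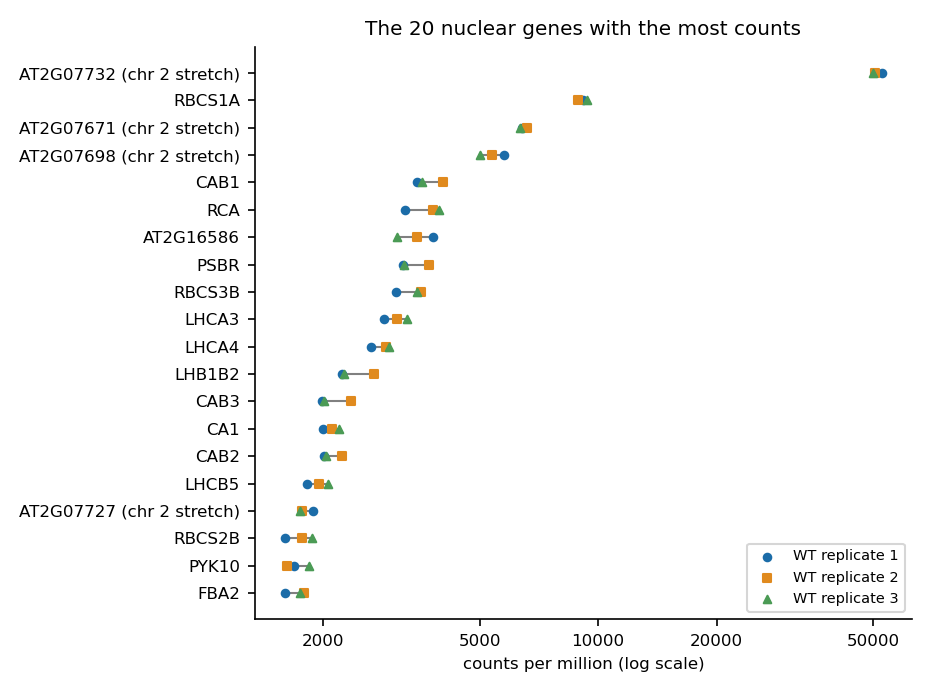
CPM (log scale) of the 20 nuclear genes with the highest mean in the 3 WT libraries, 1 symbol per replicate and a grey line from the lowest to the highest library. AT2G07732 stands apart near 50989 CPM, RBCS1A follows at 9147 CPM, and from the fifth place on the ranges of neighbours overlap.

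The remaining members of the first 20 were PYK10, AT2G16586 and AT2G07727, one more locus of the chromosome 2 stretch. PYK10, a beta-glucosidase stored in the ER bodies of roots and hypocotyls, stood at 1692, 1621 and 1848 CPM, highest in replicate 3. AT2G16586, unnamed in the reference, stood at 3799, 3464 and 3078 CPM, highest in replicate 1. AT2G07727 stood at 1888, 1773 and 1752 CPM. Of the 19 pairs of neighbours in the order of the first 20 genes, 15 had ranges that overlapped between libraries, and the 4 that did not were the first 4. The order from the fifth place down is therefore not fixed by 3 libraries.

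Markers of root, leaf and vascular tissue were present, as the label of a whole seedling calls for, and markers of flowers were at or near 0. Of 18 root markers 17 were at 1 CPM or more, among them CASP1 of the endodermal Casparian strip at 32.4, 31.6 and 33.3 CPM, SCR of the endodermis at 13.2, 11.4 and 15.9 CPM and the root hair gene COBL9 at 3.96, 4.98 and 4.46 CPM. WOX5, expressed in the few cells of the quiescent centre, was the exception at 0.229, 0.343 and 0.427 CPM. A whole-seedling library mixes organs, and fewer cells of a type and less RNA per cell cannot be told apart in it.

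Of 11 markers of the leaf epidermis and stomata 9 were at 1 CPM or more. FDH, a wax and cutin synthesis enzyme of the epidermis, had 189, 201 and 206 CPM, and the guard cell transcription factor FAMA had 4.07, 3.38 and 4.46 CPM. MUTE, active briefly in the stomatal lineage, and the trichome regulator GL1 stayed below 1 CPM at means of 0.696 and 0.136 CPM. Vascular genes were present in 6 of 7 cases, with HB-8 of the procambium at 37.9, 35.1 and 39.8 CPM and the phloem sucrose transporter SUC2 at 26.5, 28.7 and 26.3 CPM. Of the 7 genes of the shoot meristem and leaf primordia, STM, KNAT1, ANT and AS1 were detected, with STM at 1.55, 1.37 and 2.14 CPM. WUS, CLV3 and CUC2, each active in few cells, were at or below 0.183 CPM in every library.

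Among genes of floral organs and pollen, counts were few. Only SEP3 of 11 floral organ identity genes reached 1 CPM, with 1.49, 1.32 and 1.1 CPM, and AP1 and STK had no count, which allows up to 0.172 to 0.183 CPM in one library. Of 6 pollen and sperm genes none reached 1 CPM and VGD1, DUO1, MGH3 and GEX2 had no count. The 12 genes of cell division were all detected, from CDKB2;2 at a mean of 2.66 CPM to TSO2, a subunit of ribonucleotide reductase, at 44.5 CPM.

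**Figure D3:**
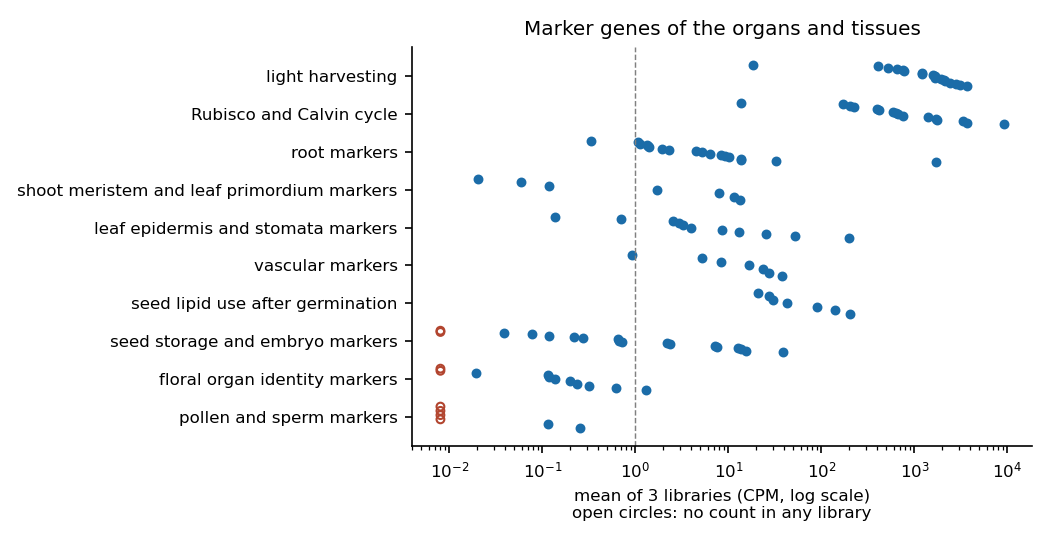
Mean CPM of the 3 WT libraries (log scale) for each gene of 10 lists of organ and tissue genes, with 1 point per gene, a dashed line at 1 CPM and open circles at the left edge for genes with no count. Photosynthesis genes lie to the right, root, epidermis and vascular genes mostly between 1 and 100 CPM, and floral and pollen genes to the left of 1 CPM except SEP3 at 1.30 CPM.

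Genes that use the reserves of the seed were still counted at 5 days. All 7 genes of the breakdown of stored lipid were detected, with KAT2, a peroxisomal thiolase of fatty acid beta-oxidation, at 200, 203 and 205 CPM and PCK1, which starts the making of sugar from lipid carbon, at 143, 141 and 134 CPM. ICL and MLS, the glyoxylate cycle enzymes, had 88.8, 92.9 and 87.0 CPM and 19.1, 21.5 and 22.5 CPM. None of the 7 was called variable, beside 1.67% of all tested nuclear genes. Seed storage genes remained at low levels, with 8 of 18 at 1 CPM or more, and LEC1 and FUS3, regulators of embryo maturation, had no count.

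The storage genes differed between libraries, although they were few. CRA1, a seed storage globulin (cruciferin), stood at 26.9, 48.3 and 41.5 CPM, CRC, another cruciferin, at 8.14, 16.8 and 16.0 CPM, and OLEO2, an oil body protein, at 10.0, 15.2 and 12.3 CPM. Replicate 1 was lowest for all 3, and these were the 3 of 11 tested genes of the list that were called variable, beside 1.67% of all tested nuclear genes. The summed level of the list was 76.2, 123 and 108 CPM. Without replicate 1 none of the 3 was called, and with library totals OLEO2 fell to a ratio of 1.48 and was not called.

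For spread between libraries, the 3 counts of each nuclear gene with a mean of at least 10 counts were tested against the library sizes with a Pearson chi-square test and Benjamini-Hochberg adjustment over all 18603 such genes. This asks only whether libraries differ beyond counting error. There were 1313 such genes, or 7.06% of those tested, at an adjusted p under 0.05. A gene was called variable where, in addition, its highest library was at least 1.5 times its lowest. There were 310 such genes, or 1.67%, and 108, or 0.581%, at 2 times or more. The lowest ratio inside the threshold and the highest ratio outside it among genes beyond counting error were 1.502 and 1.498.

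Libraries were otherwise close. Among the 10861 nuclear genes with a mean of at least 100 counts, the median coefficient of variation beyond counting error was 2.89%, and 4489 genes (41.3%) showed no spread beyond counting error. The 90th percentile was 11.5%, the 99th was 23.1%, and 177 genes were over 20%. Genes with more counts allowed smaller differences to be seen. At 1000 CPM or more 45 of the 46 genes differed beyond counting error, but none of them was called variable. Between 1 and 10 CPM lay 208 of the 310 called genes, or 2.17% of the 9603 tested there. The called share was 1.25% between 10 and 100 CPM and 0.337% between 100 and 1000 CPM, against 1.67% of all tested.

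Of the 1300 nuclear genes with a mean of at least 1000 counts, 251 had no estimated spread beyond counting error. LHCB4.1, an antenna protein of photosystem II, stood at 1662, 1653 and 1659 CPM, FAD2, a fatty acid desaturase, at 458, 461 and 458 CPM, and 2-Cys Prx B, a plastid peroxiredoxin, at 78.9, 78.6 and 79.0 CPM. Of the 16 reference genes for quantitative PCR none was called variable, beside 1.67% of all tested nuclear genes. Their median coefficient was 2.18%, against 2.89% for all nuclear genes. Of the 16, 3 differed beyond counting error, beside 7.06% of all tested nuclear genes. GAPC1, a cytosolic glyceraldehyde phosphate dehydrogenase, had 468, 474 and 477 CPM and no estimated spread beyond counting error. ACT2, an actin, had 304, 300 and 316 CPM, and UBQ11, a polyubiquitin, had 244, 281 and 281 CPM. UBQ10, another polyubiquitin, had 172, 170 and 180 CPM. UBQ11 differed beyond counting error, with a coefficient of 7.93%, above the median of all nuclear genes.

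**Figure D4:**
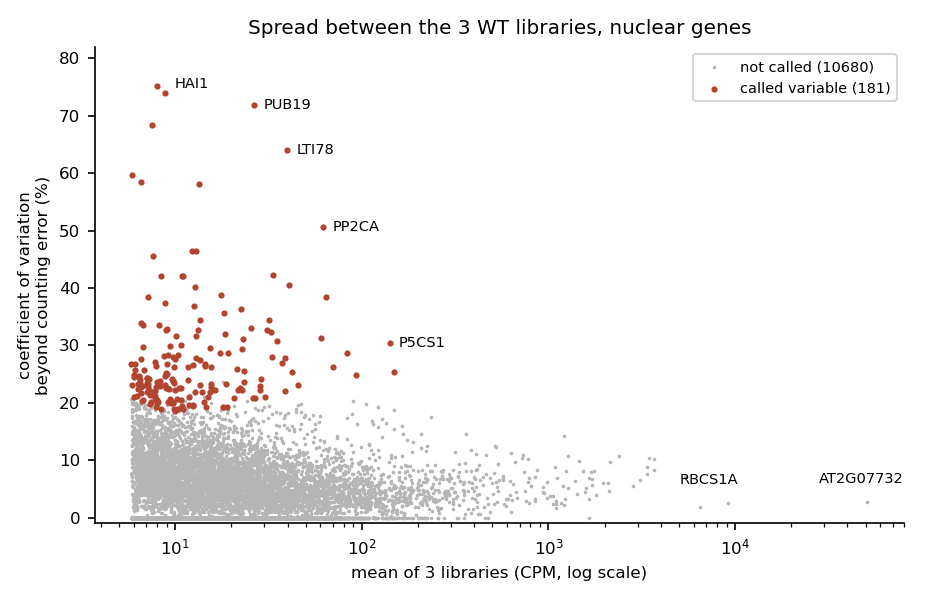
Coefficient of variation beyond counting error between the 3 WT libraries (percent) against mean CPM (log scale) for 10861 nuclear genes with a mean of at least 100 counts, with the 181 genes called variable in red. The genes with the widest spread lie below 100 CPM, and the points on the line at 0 are the 4489 genes with an estimate of 0.

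Replicate 3 was most often the library that differed. Of the 310 called genes it was the lowest for 177, against 85 for replicate 2 and 48 for replicate 1. In 138 genes replicate 3 stood apart below the other two, meaning that the gap to the middle library was the wider one. Replicate 2 was the highest library for 148 genes. When replicate 3 was left out, 56 genes were called, 54 of them among the 310. Without replicate 2 there were 175 and without replicate 1 there were 235.

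The 20 genes with the largest coefficients were chosen by this spread, so their values are a description. In 18 of them replicate 3 was lowest and in 18 replicate 2 was highest. Place 20, ORA47, had a coefficient of 38.40% and the next gene, ABI1, had 38.37%. Without replicate 3 only 6 of the 20 remained called: AT4G33467, HAI1, COR15A, AT1G64380, AT1G20070 and ORA47.

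Several of the 20 are known from the response to abscisic acid (ABA), the hormone of water deficit and seed dormancy; enrichment was not tested. In this pathway ABA binds PYR/PYL receptors, which then block clade A protein phosphatases 2C. The phosphatases otherwise hold SnRK2 kinases inactive, and freed kinases phosphorylate ABF transcription factors, which switch on protective genes. Genes of the phosphatases are themselves raised by ABA, as a negative feedback.

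Of the phosphatases, HAI1 stood at 9.63, 15.0 and 1.89 CPM and HAI2 at 10.2, 10.8 and 1.53 CPM. PP2CA stood at 75.9, 84.5 and 26.1 CPM and ABI2 at 15.4, 16.2 and 6.78 CPM. For each of these 4, replicate 3 lay below both others, by 7.92-fold from the highest to the lowest library in HAI1 and by 2.39-fold in ABI2. NCED3, which catalyses the limiting step of ABA synthesis under water deficit, stood at 46.1, 53.9 and 22.1 CPM.

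Genes of the cold and drought response among the 20 showed the same low library. LTI78 (RD29A), a dehydration and cold response protein, stood at 43.6, 63.2 and 12.5 CPM, and LTI65 (RD29B), its ABA-dependent relative, at 17.6, 18.4 and 4.40 CPM. COR15A, which protects plastid membranes in the cold, stood at 6.36, 10.5 and 2.75 CPM. AT4G33467, the gene with the largest coefficient and unnamed in the reference, was also lowest there, at 8.77, 13.6 and 1.59 CPM.

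The 20 also held PUB19, PUB18 and AIRP2. PUB19, a U-box ligase that dampens ABA and drought responses, stood at 31.2, 42.7 and 5.50 CPM, and PUB18, its close relative, at 9.92, 11.0 and 4.27 CPM. AIRP2, a RING ligase named for ABA insensitivity, stood at 12.2, 14.6 and 5.68 CPM. In all 3 the order of the libraries was the same, with replicate 2 highest and replicate 3 lowest.

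Other genes among the 20 were transcription factors and clock outputs. FKF1, a blue-light receptor of the photoperiod pathway, stood at 7.57, 11.2 and 4.09 CPM. ASG4, a MYB-like factor related to the clock proteins, stood at 7.17, 8.53 and 1.83 CPM, and NF-YB2, a subunit of a CCAAT-binding factor, at 34.1, 47.6 and 19.1 CPM. ERF8, an ethylene response factor, stood at 18.9, 24.0 and 10.3 CPM. AT1G64380 stood at 12.4, 19.3 and 7.21 CPM and AT1G20070 at 10.6, 16.0 and 6.60 CPM.

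In these 6 genes replicate 3 was again lowest and replicate 2 highest. There were 2 exceptions to the low replicate 3. AT3G18773 was highest there, at 9.63, 8.35 and 18.9 CPM, and ORA47, an activator of jasmonate synthesis, was highest in replicate 1, at 10.1, 4.46 and 6.90 CPM.

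The list of 16 cold, drought and ABA response genes had 10 called variable, beside 1.67% of all tested nuclear genes. Replicate 3 was lowest for 14 of the 16, and the median coefficient of the 13 genes with a mean of at least 100 counts was 28.3%, against 2.89% for all nuclear genes. Its summed level was 848, 1007 and 719 CPM. Without replicate 3 only 1 of the 16 was called, and without replicate 1 or 2 there were 8 each.

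The members differed widely in size. COR47 and RD22, the genes of the list with the most counts, were not called, at 222, 236 and 214 CPM and at 192, 246 and 232 CPM. P5CS1, which makes proline under drought, stood at 149, 180 and 94.5 CPM, and ERD10, a dehydrin, at 92.3, 116 and 69.6 CPM. COR15B, a second COR15 protein, stood at 2.46, 4.18 and 1.10 CPM. The cold regulators CBF1, CBF2 and CBF3, named here after their values were seen, were also called and lowest in replicate 3, with CBF2 at 26.8, 23.6 and 16.7 CPM.

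The 5 gene families of the ABA pathway were added after the most variable genes were seen, so their counts describe these libraries and nothing more. Of the 8 tested clade A phosphatases, 6 were called variable, beside 1.67% of all tested nuclear genes, and the family summed to 225, 253 and 103 CPM. ABI1, the best known of them, stood at 73.7, 83.6 and 36.5 CPM, and HAB1 at 25.5, 23.6 and 14.9 CPM. HAB2 was not called, at 13.1, 17.6 and 14.5 CPM, and it was the 1 tested phosphatase whose lowest library was not replicate 3. Without replicate 3 only 1 of the 8 was called, which was HAI1.

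Of the receptors and kinases none was called, which is near the 1.67% of all tested nuclear genes for families of this size. Of 9 tested receptors 6 were lowest in replicate 3, and PYL8, the receptor with the most counts, stood at 28.5, 27.2 and 26.6 CPM. Of the 10 SnRK2 kinases, SNRK2.2 stood at 48.6, 48.9 and 50.1 CPM and OST1, the kinase of stomatal closure, stood at 8.71, 10.4 and 9.40 CPM. Replicate 3 was the highest library for 7 of these 10 kinases. Of the 10 tested genes of ABA synthesis and breakdown 6 were lowest in replicate 3 and only NCED3 was called, whereas ABA1, the zeaxanthin epoxidase, stood at 75.7, 88.7 and 79.4 CPM. NCED3 was not called without replicate 3.

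Among the 7 tested ABF and ABI5 transcription factors ABF2, at 20.3, 23.5 and 10.9 CPM, and ABF3, at 33.2, 41.9 and 23.4 CPM, were called. Replicate 3 was lowest for 6 of the 7. Without replicate 3 none of the 7 was called, and without replicate 2 there was 1. ABF1 and ABF4 were not called, at 35.2, 37.9 and 26.1 CPM and at 29.1, 28.9 and 20.8 CPM. What set replicate 3 apart was not tested. Its library total, 16282013 counts, was the lowest of the 3, and its TMM factor was 1.01.

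**Figure D5:**
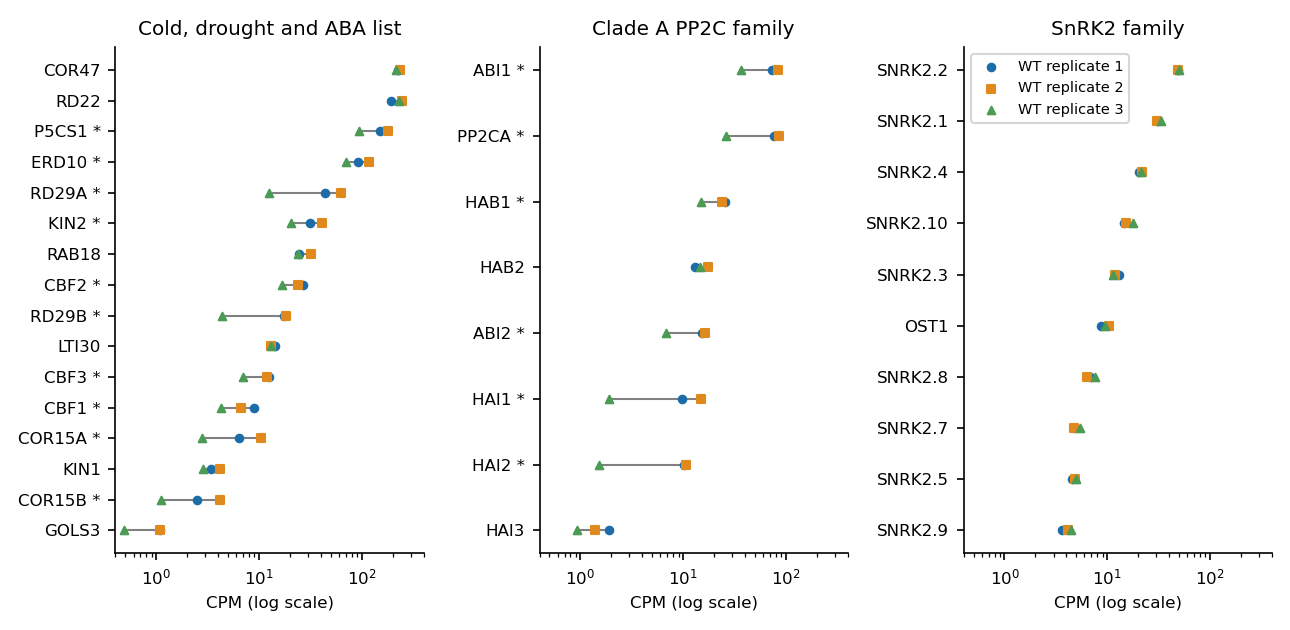
CPM (log scale) in each of the 3 WT libraries for the tested genes of the cold, drought and ABA response list, the clade A phosphatases 2C and the SnRK2 kinases, with a star after genes called variable. Green triangles, replicate 3, lie left of the other symbols for most genes of the first and second panel and on top of them in the third.

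Other lists held fewer called genes. Beside 1.67% of all tested nuclear genes, 3 of 16 tested clock genes were called: LUX, of the evening complex, at 19.8, 22.3 and 14.8 CPM, RVE1, a morning MYB factor, at 8.94, 6.07 and 11.2 CPM, and FKF1. With library totals LUX had a ratio of 1.48 and was not called, without replicate 3 none of the clock genes was called, and without replicate 2 there was 1. GI, an evening gene of the photoperiod pathway, stood at 83.6, 80.8 and 68.6 CPM and PRR7, a daytime repressor, at 50.6, 50.7 and 51.2 CPM. GRP7, a clock-driven RNA-binding protein, stood at 51.1, 57.8 and 40.0 CPM, and the morning factors CCA1 and LHY, named outside the rule, had means of 6.11 and 2.68 CPM. The time of day of the harvest is not given in the labels.

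Of 25 tested genes of touch, wounding and jasmonate 4 were called, again beside 1.67% of all tested nuclear genes. TCH4, a touch-induced cell wall enzyme, stood at 33.1, 20.7 and 32.8 CPM and ZAT12, a stress zinc finger factor, at 18, 12 and 19.0 CPM. CYP94B3, which breaks down active jasmonate, stood at 5.33, 2.80 and 3.97 CPM, and WRKY53, a defence and senescence factor, at 9.97, 10.3 and 6.17 CPM. Replicate 2 was lowest in the first 3 of these and replicate 3 in WRKY53. LOX2, a plastid lipoxygenase of jasmonate synthesis, was level at 157, 158 and 161 CPM. Without replicate 2 only 1 of the 25 was called and without replicate 3 there were 2.

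Heat and nutrient genes had 1 called member each, of 7 and 17 tested, beside the same 1.67%. Replicate 3 was lowest for 13 of the 17 nutrient genes, against 34.7% of all tested nuclear genes. It was lowest for 13 also with library totals and with DESeq2 size factors. The differences were small, with a median of 1.14-fold from lowest to highest library, against 1.18-fold for all tested nuclear genes. HSP18.2, a small heat shock protein, stood at 2.87, 1.03 and 1.53 CPM, and LSU1, a gene of sulfur shortage, at 1.95, 4.12 and 1.71 CPM. HSP18.2 was not called without replicate 1 or without replicate 2, nor LSU1 without replicate 2. HSC70-1, a constitutive chaperone, stood at 1085, 1032 and 1066 CPM, while 7 of 13 heat shock genes were below 1 CPM. Among nutrient genes the nitrate reductases NIA2 (855, 864 and 817 CPM) and NIA1 (580, 602 and 528 CPM) led.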

How the data were processed

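The authors deposited 1 RNA table that holds raw read counts, whole numbers per feature for each library. Per the submitters' processing notes the tools were TopHat2, SAMtools, HTSeq and edgeR. The sources used here do not give versions, the genome build, or how strand and multiply mapped reads were handled, so counts of overlapping or antisense features and near-identical copies are uncertain. Only the 3 WT columns were used; 9 other per-sample columns were not.

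Features were classed by identifier. Names and gene types came from the RefSeq table of TAIR10.1, which matched 28009 of 28496 nuclear identifiers; it was not used for positions or lengths, so the planned order per kilobase was not made and no sequence is shown. CPM used TMM factors from edgeR 4.0.16 in R 4.3.3 (DESeq2 1.42.0 for the alternative) over 19104 features with a mean of at least 10 counts, and other steps used Python 3.11.15, NumPy 2.4.6, SciPy 1.17.1 and pandas 2.3.3. The coefficient of variation beyond counting error was the square root of the variance of scaled counts less the counting variance, over the mean, set to 0 where negative. No test compares groups, since there is 1 group.

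Named were the first 20 nuclear genes by CPM and by coefficient (called, mean of at least 100 counts), any gene of the marker and accession lists, and in other lists the 4 with the most CPM and up to 4 called ones, plus 2 identifiers for each other class and up to 5 of the steadiest genes with a mean of at least 1000 counts. Exceptions are the ABA families and genes named as such. Of 337 list entries in 24 lists, 7 were not used, because their symbol and locus did not match or the locus was not analysed here. Members and lists were chosen with earlier results of these data known. On simulated counts with 1 library changed by 1.5, 2, 4 or 8 times, 44.0%, 86.0%, 100% and 100% of 50 genes each were called, and 3 of 18395 unchanged genes. The simulated counts carried counting error only, and the changed genes had a mean of at least 50 counts. The real libraries differed beyond counting error, so these rates check the calculation and do not give error rates for the real data. Alternatives covered scaling, count minimum, fold, estimator and leaving out each replicate.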

Additional observations from a re-analysis of the deposited data

How the results depend on the processing

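Scaling by library totals or DESeq2 size factors left the level of every one of 398 named genes within its spread; of 42 called ratios, 2 fell below 1.5 with library totals. The stretch AT2G07600 to AT2G07899, left out as an alternative chosen after seeing the data, moved the shares to 49.1% nuclear, 48.8% plastid, 1.13% mitochondrial, 0.867% non-coding and 0.115% transposable elements, and the genes that hold 50% of nuclear CPM to 801. Requiring 2 times in place of 1.5 left 108 called genes. Leaving out each replicate gave 56 to 235 called genes, 3 to 18 of the 20 most variable genes, and 8 to 15 called genes of the 22 on the lists, lowest without replicate 3 each time. The median coefficient was then 0 in each case. Negative estimates are set to 0, so this does not show that the libraries spread less. With the edgeR tagwise dispersion the median was 6.06%, and the common value was 6.35%. With a mean of at least 20 or at least 500 counts, 8 and 4 of the 20 most variable genes were kept, because other genes enter or leave. Depth limits genes under 10 counts, which were not tested. The order per kilobase was not run. No paired analysis was possible because only 1 group was used.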

Other observations

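In the list of glucosinolate breakdown and ER bodies 3 of 9 genes were above 100 CPM. TGG1, a myrosinase, stood at 350, 374 and 385 CPM, and ESP, which turns glucosinolate breakdown towards nitriles, at 378, 450 and 442 CPM. NAI2, needed to form ER bodies, stood at 86.2, 78.5 and 87.9 CPM, whereas TGG2, a second myrosinase, was at or below 0.115 CPM. All 8 aquaporins of their list were above 100 CPM, led by TIP1;2 of the vacuole membrane at 1494, 1637 and 1559 CPM and TIP2;1 at 896, 940 and 982 CPM. Of the 8 aquaporins 6 differed beyond counting error, beside 7.06% of all tested nuclear genes. That share was 51.1% between 100 and 1000 CPM and 97.8% at 1000 CPM or more. The median coefficients were 4.73% for the ER body list and 4.45% for the aquaporins, against 2.89% for all nuclear genes. By level, the nuclear median was 4.00% between 100 and 1000 CPM and 5.86% at 1000 CPM or more. No tested gene of either list was called variable, beside 1.67% of all tested nuclear genes.

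Levels were mostly low among the defence genes and ranged more widely among the low-oxygen genes. Of 12 salicylic acid and defence genes 4 reached 1 CPM, led by NPR1, a salicylic acid receptor, at 15.6, 15.2 and 15.3 CPM, and PR1, PDF1.2 and PDF1.2b had no count. Of 13 genes of low oxygen and sugar starvation 12 reached 1 CPM, with DIN10 at 284, 273 and 297 CPM and ADH1, an alcohol dehydrogenase, at 4.36, 5.32 and 5.56 CPM. None of the tested genes in either list was called, beside 1.67% of all tested nuclear genes. Of the 12 tested low-oxygen and starvation genes 3 differed beyond counting error, beside 7.06% of all tested nuclear genes. Of the 5 tested defence genes 0 did.

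Genes known to differ between accessions were all counted. ER, the receptor kinase that is mutated in Landsberg erecta, stood at 31.0, 31.6 and 26.3 CPM, which shows its RNA and not its protein. FLC, the flowering repressor, stood at 4.53, 5.66 and 4.52 CPM and FRI, its activator, at 1.15, 2.46 and 1.65 CPM. AOP3, of glucosinolate side chains, stood at 3.73, 3.26 and 3.54 CPM, HUA2, an RNA processing factor, at 18.1, 17.3 and 18 CPM, the side chain elongation gene MAM1 at 1.72, 1.95 and 1.40 CPM and its relative MAM3 at 10.7, 12.1 and 13.2 CPM. None of the 8 was called, beside 1.67% of all tested nuclear genes.

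By gene type, protein-coding genes held 99.4% of the nuclear CPM. Small nuclear RNA genes held 0.300%, nearly all of it U1.5, a spliceosomal U1 RNA, at 1502, 1419 and 1664 CPM. Genes typed as ncRNA held 0.203%, led by AT1G15405 at 535, 571 and 445 CPM, lowest in replicate 3. None of 623 nuclear tRNA genes reached 1 CPM, and 1 of 4 nuclear rRNA genes did, at 31.2, 35.1 and 31.6 CPM.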
